A study of Mus musculus with 10 samples.

Results

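The 10 genes described here encode the receptor, the kinases, the transcription factors and the feedback inhibitors of interleukin-7 signalling, and they were taken by symbol from a table of 20813 genes in which all 10 had a row. They are Il7r and Il2rg (receptor chains), Jak1 and Jak3 (kinases), Stat5a and Stat5b (transcription factors), and Socs1, Socs2, Socs3 and Cish (inhibitors). RNA came from 10 leukemic spleen samples of C57BL/6 mice injected intravenously with T-cell acute lymphoblastic leukemia (T-ALL, a cancer of immature T cells) after irradiation below the lethal dose. All of the leukemias carried a conditional Sirt1 allele, so both groups share it. 5 samples are labelled Sirt1 deleted, with titles TMX7, TMX8, TMX10, TMX11 and TMX12, and 5 are labelled Control, with titles VEH2 to VEH6. The recipients received intraperitoneal tamoxifen or only its corn oil vehicle, so genotype label and drug cannot be told apart. The labels name neither the Cre driver, nor the age or sex of the mice, nor whether the leukemias came from 1 donor clone, and they do not state that each sample is a separate mouse. Each p-value therefore measures only the spread between these samples, which may be technical where samples share a mouse.

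Interleukin-7 is a growth and survival factor of developing T cells. It joins the alpha chain Il7r to the common gamma chain Il2rg, the kinases JAK1 and JAK3 bound to these chains then phosphorylate STAT5A and STAT5B, and the STAT5 proteins enter the nucleus and switch on target genes. Among the targets are CIS (the product of Cish) and SOCS proteins, which bind receptors or kinases and damp the signal, and activating mutations in this pathway are known from human T-ALL.

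Values are counts per gene that the authors normalized with DESeq, and they summed to between 33.7 and 34.5 M per sample (M, mega). Sirt1 itself, the targeted gene, measured 1873 ± 146 in TMX and 1810 ± 62.5 in VEH samples (SD, n = 5 each; limma adjusted p = 0.568), so the gene-level value does not check the genotype label, and the groups are called TMX and VEH samples throughout. On the first principal component, which held 39.2% of the variance, TMX10 and TMX11 lay at 9.41 and 12.9, between the VEH samples (-46.1 to -22.0) and the other TMX samples (39.2 to 52.1). T lineage markers were plentiful in every sample: the normalized counts of 17 such genes, among them Cd3e, Lck and Rag1, summed to between 129511 and 138047 in TMX and between 125564 and 137623 in VEH samples. Markers of myeloid cells were higher in TMX samples. 13 neutrophil markers summed to between 27078 and 94364 in TMX and between 8412 and 11701 in VEH samples, and 12 macrophage and monocyte markers to between 6496 and 11601 against 3066 to 3541. Within the latter sums, Lyz2 alone held 2133 to 6255 in TMX and 736 to 1002 in VEH samples. The part of the myeloid markers in the results below was not tested. In bulk tissue, fewer cells of a type and less RNA per cell cannot be told apart.

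Il7r, Jak1, Stat5a, Stat5b and Cish fell in TMX samples, Socs1 and Socs3 rose, and Il2rg, Jak3 and Socs2 did not pass the test. Thus 7 of the 10 genes had an adjusted p under 0.05 in limma, against 36.1% of all 15276 genes tested, with 2 higher (background 16.8%) and 5 lower (background 19.4%). The median log2 difference of the 10 genes was -0.21, beside -0.00014 over all tested genes. No overlap between TMX and VEH values was found for 5 of the 10, namely Il7r, Jak1, Stat5a and Stat5b as lower and Socs3 as higher, where 24.0% of all tested genes showed no overlap (11.1% higher, 12.9% lower). Upper-quartile rescaling turned the split of all changed genes from 46.4% higher to 58.5% higher and left the split of these 10 at 2 higher and 5 lower. Without TMX10 and TMX11, 7 of the 10 also passed, against 45.6% of the genes then tested. Among genes with a mean of at least 50, 7 of 9 members passed, against 5125 of 11762 genes tested (2129 higher, 2996 lower).

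**Figure D1:**
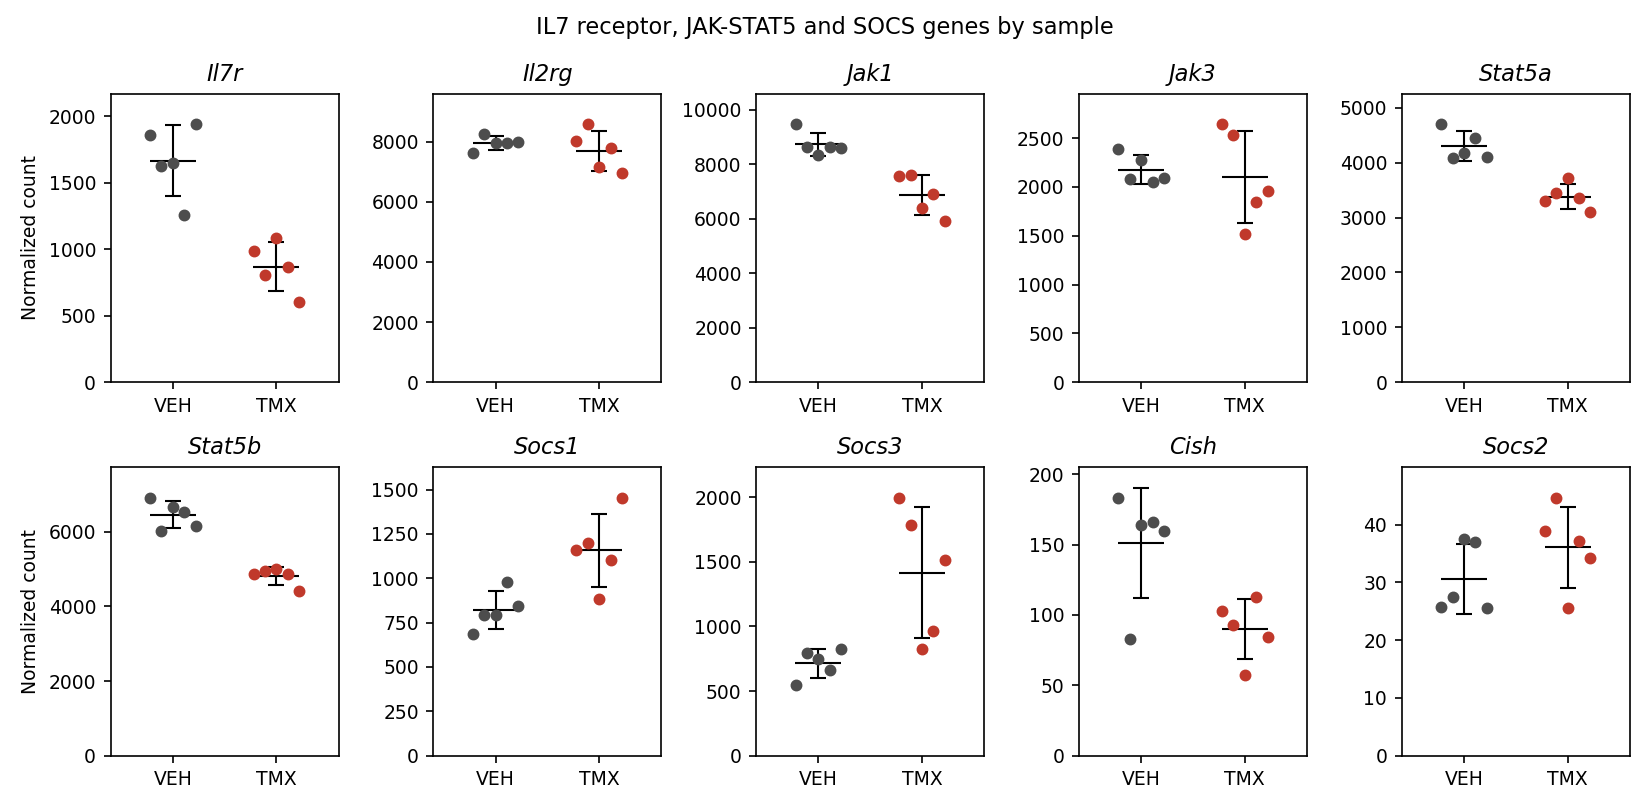
Normalized count (vertical axis, linear, from 0) of each of the 10 genes in the 5 VEH and 5 TMX samples; each point is a sample, ordered by its number, and the bars show the mean ± SD. Every TMX sample lies below every VEH sample for Il7r, Jak1, Stat5a and Stat5b, and the TMX values of Socs3 spread from 826 to 1995.

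The receptor alpha chain was lower in every TMX sample than in any control. Il7r (ENSMUSG00000003882.5, chr15:9505788-9530176, minus strand) encodes the chain that gives the receptor its specificity. Its normalized count was 987 in TMX7, 806 in TMX8, 1085 in TMX10, 870 in TMX11 and 603 in TMX12. In the controls it was 1861 in VEH2, 1628 in VEH3, 1652 in VEH4, 1256 in VEH5 and 1940 in VEH6. The lowest control was VEH5, and TMX12 was the lowest of all samples. The means were 870 ± 184 and 1667 ± 266 (SD, n = 5 each), and Il7r fell 1.93-fold (log2 difference -0.95, SE 0.15, 95% interval -1.28 to -0.62, limma adjusted p = 0.00102, lower in 5 of 5 samples). An exact two-sided permutation test gave p = 0.00794, the smallest that 5 against 5 samples allow. Of the 17 T lineage markers, whose sums overlapped between the groups, 4 fell and 1 rose, where 19.4% of all tested genes fell and 16.8% rose. The part of these markers in the fall of Il7r was not tested.

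The shared gamma chain did not pass the test. Il2rg (ENSMUSG00000031304.18, chrX:101264378-101268255, minus strand) encodes the chain used by the receptors for interleukins 2, 4, 7, 9, 15 and 21. It ranged from 6957 to 8574 in TMX and from 7612 to 8264 in VEH samples, with TMX10 and TMX12 below and TMX8 above all controls. The means were 7698 ± 657 and 7957 ± 231 (SD, n = 5 each). The log2 difference of -0.05 had a 95% interval of -0.18 to 0.07 (limma adjusted p = 0.51), and its sign turned under upper-quartile rescaling (0.00884) and quantile normalization (0.00824). Of the 31-base words in its transcripts, 28.7% also occur in Gm20489, an annotated gene on the same strand that overlaps it. Gm20489 had between 0 and 6.20 normalized counts in the 10 samples.

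Of the kinases, Jak1 fell and Jak3 did not pass the test. Jak1 (ENSMUSG00000028530.14, chr4:101152367-101265282, minus strand), whose product binds the Il7r chain, measured 7581 in TMX7, 7610 in TMX8, 6390 in TMX10, 6904 in TMX11 and 5916 in TMX12. Its values were 9461 in VEH2, 8630 in VEH3, 8336 in VEH4, 8626 in VEH5 and 8608 in VEH6. The highest TMX sample, TMX8, was still below the lowest control, VEH4. Jak1 fell from 8732 ± 426 to 6880 ± 741 (SD, n = 5 each), a log2 difference of -0.35 (SE 0.07, 95% interval -0.50 to -0.20, limma adjusted p = 0.00303, lower in 5 of 5 samples).

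Jak3 (ENSMUSG00000031805.17, chr8:71676296-71690575, plus strand), whose product binds the gamma chain, spread to both sides of the controls in TMX samples. It measured 2640 in TMX7, 2534 in TMX8, 1522 in TMX10, 1850 in TMX11 and 1957 in TMX12, against 2052 to 2387 in VEH samples. TMX7 and TMX8 lay above all controls, and the other TMX samples lay below them. The means were 2101 ± 474 and 2178 ± 147 (SD, n = 5 each), and the log2 difference was -0.08 (95% interval -0.36 to 0.20, limma adjusted p = 0.661). Its sign turned without TMX10 (0.0292, limma adjusted p = 0.844). Insl3, which encodes a relaxin-like hormone and shares exon sequence with Jak3 on the same strand, measured 330, 259, 122, 161 and 290 in TMX7, TMX8, TMX10, TMX11 and TMX12, and 120 to 157 in VEH samples. For Jak3, 8.29% of the 31-base words occur in transcripts of other genes, mostly Insl3.

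Both STAT5 genes fell. Stat5a (ENSMUSG00000004043.14, chr11:100859351-100885169, plus strand) measured 3301 in TMX7, 3441 in TMX8, 3725 in TMX10, 3348 in TMX11 and 3105 in TMX12. The controls had 4698 in VEH2, 4082 in VEH3, 4176 in VEH4, 4456 in VEH5 and 4108 in VEH6. The groups did not overlap, and Stat5a averaged 3384 ± 227 in TMX and 4304 ± 266 in VEH samples (SD, n = 5 each). It fell 1.27-fold (log2 difference -0.35, SE 0.06, 95% interval -0.47 to -0.22, limma adjusted p = 0.00136).

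Stat5b (ENSMUSG00000020919.11, chr11:100780731-100850724, minus strand) lies beside Stat5a on chromosome 11. It measured 4863 in TMX7, 4951 in TMX8, 5009 in TMX10, 4862 in TMX11 and 4414 in TMX12. In the controls it was 6911 in VEH2, 6027 in VEH3, 6678 in VEH4, 6528 in VEH5 and 6161 in VEH6. The lowest control exceeded the highest TMX sample by more than the SD of either group. Stat5b fell from 6461 ± 365 to 4820 ± 235 (SD, n = 5 each), 1.34-fold (log2 difference -0.42, SE 0.05, 95% interval -0.53 to -0.31, limma adjusted p = 3.21e-04, lower in 5 of 5 samples), the smallest adjusted p of the 10 genes. Stat3, the next STAT gene on that chromosome, measured 3752 ± 137 in TMX and 4153 ± 330 in VEH samples and did not pass (log2 difference -0.14, limma adjusted p = 0.0687).

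STAT5A and STAT5B are near copies, so reads from one gene can be credited to the other, and the sequence shared by both shows how far this can reach. The longest identical run of the principal coding sequences in GENCODE M21 spans 324 bases, from base 571 to base 894 of both, counted from the A of the start codon. Its first 120 bases, written in lower case 5′ to 3′, are:
Stat5a and Stat5b, coding bases 571 to 690: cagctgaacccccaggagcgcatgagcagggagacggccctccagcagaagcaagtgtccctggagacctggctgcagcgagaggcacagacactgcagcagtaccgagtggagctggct
In all, 836 words of 31 bases occur in both genes, and 12.3% of the Stat5a words and 15.2% of the Stat5b words are shared with some other gene. The sum of both genes does not depend on how reads were divided between them. It was between 7519 and 8734 in TMX and between 10110 and 11609 in VEH samples, with no overlap. Stat5b held 57.4% to 59.6% of the sum in TMX and 59.4% to 61.5% in VEH samples, so the division between the paralogs overlapped.

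The inhibitors split into genes that rose and a gene that fell. SOCS1 and SOCS3 are induced by several cytokines and inhibit the JAK kinases directly, whereas CIS binds phosphorylated receptors. Promoter sequence is shown for the inhibitors that passed the test and for Il7r, because STAT dimers are known to bind the palindrome TTCNNNGAA (the GAS element) and interferon-activated factors bind repeats of GAAANNGAAA (the core of the ISRE). Both motifs were searched on both strands in the 300 bases around each start (250 before it and 50 from it on) in RefSeq's GRCm38.p6 promoters, in which all 10 genes had an entry. Capitals mark the matches, and positions count the start base as 0.
Cish, chr9:107296499-107296678, plus strand, bases -160 to 19: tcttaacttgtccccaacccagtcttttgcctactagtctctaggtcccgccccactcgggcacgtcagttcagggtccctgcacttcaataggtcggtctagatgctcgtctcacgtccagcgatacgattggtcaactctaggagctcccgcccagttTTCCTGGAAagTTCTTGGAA
Socs1, chr16:10785537-10785716, minus strand, bases -180 to -1: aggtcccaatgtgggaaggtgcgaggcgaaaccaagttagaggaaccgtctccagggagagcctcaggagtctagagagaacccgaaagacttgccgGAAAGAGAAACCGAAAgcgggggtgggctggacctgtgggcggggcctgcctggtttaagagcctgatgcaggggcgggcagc
Socs3, chr11:117969367-117969546, minus strand, bases -180 to -1: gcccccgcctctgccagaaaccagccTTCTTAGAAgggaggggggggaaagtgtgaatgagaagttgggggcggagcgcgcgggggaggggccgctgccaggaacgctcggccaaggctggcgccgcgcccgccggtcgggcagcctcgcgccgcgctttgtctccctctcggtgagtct
Il7r, chr15:9529877-9530056, minus strand, bases -180 to -1: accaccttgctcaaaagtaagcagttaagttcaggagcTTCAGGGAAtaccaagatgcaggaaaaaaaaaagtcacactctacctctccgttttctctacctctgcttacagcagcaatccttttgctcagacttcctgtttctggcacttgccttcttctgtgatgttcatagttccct
Cish had 2 GAS matches, at 0 to 8 and 11 to 19, a number found in 0.457% of 32817 promoters counting those with 2 or more. Socs3 and Il7r had 1 each, at -154 and -142, where 8.29% of promoters had at least 1. Socs1 had no GAS match and 2 ISRE core matches at -83 and -77 that overlap each other. Of all promoters, 0.222% had 2 or more ISRE core matches and 3.43% had at least 1. The windows of Il2rg, Jak1, Jak3, Stat5a, Stat5b and Socs2 held neither motif. A match describes these letters and is not evidence of binding.

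Socs3 (ENSMUSG00000053113.3, chr11:117966079-117970047, minus strand), an inhibitor best known from signalling through gp130, rose most among the inhibitors. Its normalized count was 1995 in TMX7, 1785 in TMX8, 826 in TMX10, 963 in TMX11 and 1514 in TMX12. In the controls it was 546 in VEH2, 795 in VEH3, 746 in VEH4, 667 in VEH5 and 825 in VEH6. TMX10 and VEH6 nearly met, so the groups separated by less than 1% of their values, while TMX7, TMX8 and TMX12 were far above all controls. Socs3 averaged 1417 ± 509 in TMX and 716 ± 112 in VEH samples (SD, n = 5 each) and rose 1.89-fold (log2 difference 0.92, SE 0.22, 95% interval 0.44 to 1.40, limma adjusted p = 0.00764). Without TMX10 and TMX11, which hold the lowest TMX values, the log2 difference was 1.31 (limma adjusted p = 5.76e-05). The summed neutrophil markers were 56476 in TMX7, 94364 in TMX8, 27078 in TMX10, 37408 in TMX11 and 42632 in TMX12. Thus TMX10 and TMX11 had the lowest values of the TMX group in both Socs3 and these markers, and their part in the Socs3 result was not tested.

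Socs1 (ENSMUSG00000038037.5, chr16:10782240-10785536, minus strand), which encodes a strong inhibitor of interferon and gamma-chain cytokine signalling, also rose. It measured 1157 in TMX7, 1200 in TMX8, 881 in TMX10, 1104 in TMX11 and 1453 in TMX12. The controls had 684 in VEH2, 795 in VEH3, 792 in VEH4, 981 in VEH5 and 843 in VEH6. The groups overlapped in 1 sample, TMX10, which lay below VEH5, and the other 4 TMX samples were above all controls. Socs1 rose from 819 ± 108 to 1159 ± 205 (SD, n = 5 each), 1.41-fold (log2 difference 0.49, SE 0.12, 95% interval 0.23 to 0.76, limma adjusted p = 0.00906, exact two-sided permutation p = 0.0159). The exact rank-sum test did not call Socs1, but it called only genes without overlap, so this restates the overlap. The summed counts of 10 interferon response genes ran alongside. They were 17072, 17649, 9913, 17624 and 17787 in TMX7, TMX8, TMX10, TMX11 and TMX12, and 5470 to 7302 in VEH samples. TMX10 was again the lowest of its group in both, and the part of this in the Socs1 result was not tested.

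Cish (ENSMUSG00000032578.7, chr9:107296026-107302784, plus strand), a gene widely used as a readout of STAT5 activity, fell at low counts. It measured 103 in TMX7, 93.1 in TMX8, 57.1 in TMX10, 113 in TMX11 and 84.7 in TMX12. The controls had 183 in VEH2, 83.2 in VEH3, 164 in VEH4, 166 in VEH5 and 160 in VEH6. VEH3 lay among the TMX samples, and the other 4 controls were above all of them. Cish fell from 151 ± 39.1 to 90.1 ± 21.3 (SD, n = 5 each), 1.66-fold (log2 difference -0.73, SE 0.23, 95% interval -1.23 to -0.22, limma adjusted p = 0.0278, exact two-sided permutation p = 0.0397). The call was lost without TMX12 (limma adjusted p = 0.0544), VEH2 (0.073), VEH4 (0.0605), VEH5 (0.0638) or VEH6 (0.0579), each taken alone, and with sample weights (0.0573). The exact rank-sum test, which called only genes without overlap, did not call Cish. Without VEH3, the lowest control, the log2 difference was -0.93 (limma adjusted p = 0.0053). Of its 31-base words, 10.4% occur in other genes, mostly in Gm17040 and Gm17041, which overlap it on the opposite strand, and the sources do not say whether the counting used strand.

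Socs2 (ENSMUSG00000020027.18, chr10:95385362-95417180, minus strand), another gene that STAT5 can induce and an inhibitor of growth hormone signalling, was the lowest of the 10 per kilobase of transcript. It ranged from 25.6 to 44.6 in TMX and from 25.6 to 37.5 in VEH samples, with full overlap. The log2 difference of 0.23 had a 95% interval of -0.23 to 0.69 (limma adjusted p = 0.427), wide enough to hold both no change and a rise like that of Socs1, and its sign turned under quantile normalization (-0.0479).

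**Figure D2:**
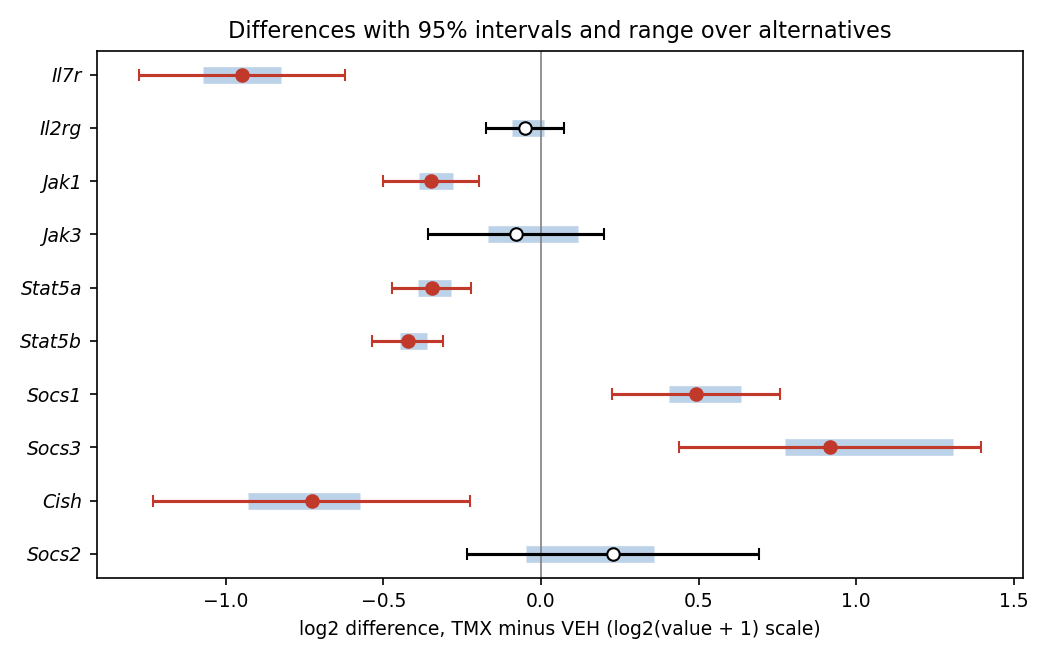
Log2 difference of TMX minus VEH samples (horizontal axis, log2(value + 1) scale) for the 10 genes. Points with bars give the estimate and its 95% interval (filled red, adjusted p under 0.05; open, above it), and the pale band is the range over the processing alternatives; it crosses 0 for Il2rg, Jak3 and Socs2.

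Levels of different genes were compared only per kilobase of the principal transcript. In VEH samples Il2rg was highest, at 4764 ± 138 normalized counts per kilobase, followed by Jak1 at 1780 ± 86.8 (SD, n = 5 each). Stat5b (1239 ± 70.0) and Stat5a (1107 ± 68.3) came next and overlapped, as did Jak3 (542 ± 36.5) and Il7r (471 ± 75.1). Socs1 (282 ± 37.0) and Socs3 (281 ± 44.0) were level with each other, followed by Cish (53.1 ± 13.7) and Socs2 (13.8 ± 2.73). In TMX samples the level of Il7r was 246 ± 52.0 per kilobase and that of Socs3 was 555 ± 199, so that all Socs3 values (324 to 782) exceeded all Il7r values (170 to 306), whereas in VEH samples Il7r (355 to 548) exceeded all Socs3 values (214 to 323). The level per kilobase depends on the transcript taken, and all of these come from GENCODE M21.

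In the rest of the gamma-chain family, Il2rb, Il9r and Il2ra fell. Of 14 listed receptors and cytokines, 8 passed the filter on low values, of which 3 fell and 5 did not pass (median log2 difference -0.40). The share called in either direction was near the 36.1% of all tested genes. All 3 calls were falls, and 19.4% of all tested genes fell. The list included Crlf2, which did not pass, and Tslp, which was not tested, and neither is a gamma-chain gene. Il2rb, the signalling chain for interleukins 2 and 15, fell from 2260 ± 208 to 1665 ± 129 (log2 difference -0.44, limma adjusted p = 0.00138), and Il9r fell from 4117 ± 248 to 3121 ± 423 (log2 difference -0.41, limma adjusted p = 0.00359; SD, n = 5 each). For both, all TMX samples were below all controls. Il2ra, the interleukin-2 receptor alpha chain and itself inducible by STAT5, had a log2 difference of -0.73 (limma adjusted p = 0.0415). TMX7 (169), TMX8 (212) and TMX12 (186) lay below all controls (347 to 494), and TMX10 (424) and TMX11 (439) lay among them. The exact two-sided permutation p of Il2ra was 0.0714. Its call was lost without TMX7 (limma adjusted p = 0.101), TMX8, TMX12, VEH2, VEH3, VEH5 or VEH6, each taken alone. It was also lost under upper-quartile rescaling (limma adjusted p = 0.0536) and in limma without the intensity trend (limma adjusted p = 0.0773). Without TMX10 and TMX11, a choice made after seeing the data, the log2 difference was -1.20 (limma adjusted p = 7.68e-05). With sample weights it was -0.89 (limma adjusted p = 0.00625). The cytokine gene Il7 itself was near the bottom of the scale, at 1.01 to 2.90 in TMX and 0 to 3.96 in VEH samples, and was not tested.

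Among 6 other JAK and STAT genes, 1 rose, 2 fell and 3 did not pass (median log2 difference -0.09), beside 16.8% higher and 19.4% lower among all tested genes. Stat2, which acts in type I interferon signalling, averaged 1531 ± 176 in TMX and 1160 ± 117 in VEH samples (SD, n = 5 each) and rose by 0.40 on the log2 scale (limma adjusted p = 0.00573). Jak2 fell by 0.45 on the log2 scale (limma adjusted p = 0.00163) and Stat6, the interleukin-4 factor, fell by 0.19 (limma adjusted p = 0.022). The Stat6 call was lost under upper-quartile rescaling (limma adjusted p = 0.0813) and quantile normalization (0.0645), and without VEH2, VEH3 or VEH5, each taken alone (0.0513 to 0.0544). Tyk2 (limma adjusted p = 0.733) and Stat4 (limma adjusted p = 0.57) did not pass.

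Of 16 other negative regulators of cytokine signalling, 12 fell, 2 rose and 2 did not pass (median log2 difference -0.25), where 19.4% of all tested genes fell and 16.8% rose. All of the remaining SOCS genes, Socs4, Socs5, Socs6 and Socs7, were among those that fell, by between 0.17 and 0.30 on the log2 scale, and among the SOCS genes tested only Socs1 and Socs3 passed as higher. The largest falls were in Ptpn1 (log2 difference -0.58, limma adjusted p = 5.72e-04), Cblb (-0.40, limma adjusted p = 0.0014), Ptprc (-0.39, limma adjusted p = 6.93e-04) and Sh2b3 (-0.35, limma adjusted p = 0.00572). Ptpn1 and Ptprc encode tyrosine phosphatases that act on JAKs, Cblb encodes a ubiquitin ligase and Sh2b3 the adaptor LNK. The 2 that rose were Pias4 (0.29) and Ptpn2 (0.14). Some falls were small, such as Pias1 (log2 difference -0.13, limma adjusted p = 0.0385). The list was not counted again under upper-quartile rescaling, which turned the split of all changed genes from 46.4% higher to 58.5% higher.

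**Figure D3:**
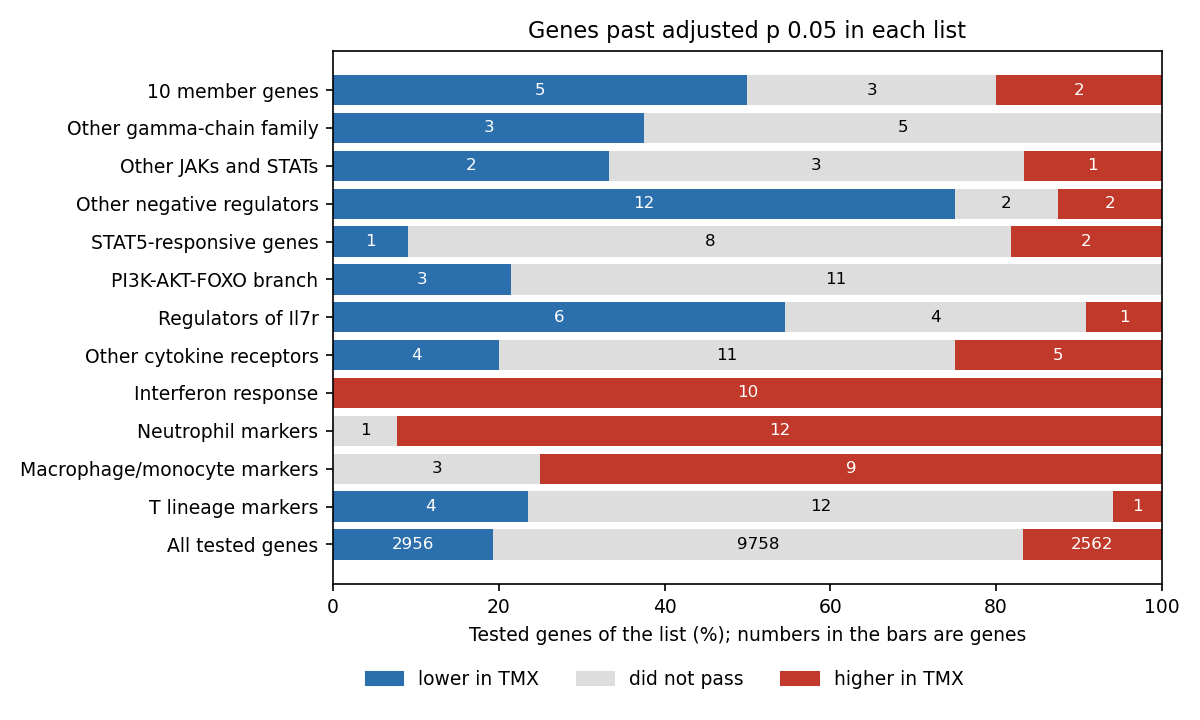
Share of the tested genes of each list (horizontal axis, %) that were lower in TMX (blue), did not pass (grey) or were higher in TMX (red) at a limma adjusted p under 0.05; the number in each segment is its count of genes. Of 16 other negative regulators, 12 were lower, while all 10 interferon response genes were higher, beside 2956 lower and 2562 higher among all 15276 genes. The lists were counted with the deposited scaling only.

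Most of the other STAT5-responsive genes did not pass the test, and neither did 9758 of all 15276 genes tested. Of 12 listed, 11 were tested, 2 rose, 1 (Il2ra) fell and 8 did not pass (median log2 difference 0.03), a share called below the 36.1% of all tested genes. Ccnd3, which encodes cyclin D3, rose to 10871 ± 848 in TMX from 7499 ± 727 in VEH samples (difference of 0.54 in log2, limma adjusted p = 5.05e-04; SD, n = 5 each), and the kinase gene Pim2 rose to 989 ± 110 from 735 ± 56.7 (difference of 0.42 in log2, limma adjusted p = 0.0031). For both, all TMX samples were above all controls. Bcl2, a survival gene downstream of interleukin-7, had a log2 difference of 0.16 (limma adjusted p = 0.186), and Pim1 one of 0.03 (limma adjusted p = 0.836).

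Of 14 genes listed for PI3K, AKT and FOXO signalling, 3 fell and 11 did not pass (median log2 difference -0.09). This share of falls was near the 19.4% of all tested genes. The 3 that fell were Pik3cg (log2 difference -0.60, limma adjusted p = 1.83e-04), Pik3r1 (-0.54, limma adjusted p = 0.00153) and Akt1 (-0.22, limma adjusted p = 0.0128). Pik3ca (limma adjusted p = 0.194), Pik3cb (0.899) and Pik3cd (0.556), which encode the other catalytic PI3K subunits listed, did not pass. Whether Pik3cg acts below the interleukin-7 receptor in these cells was not tested. Foxo1, a transcription factor that activates Il7r in T cells, measured 2910 ± 358 in TMX and 2755 ± 161 in VEH samples (limma adjusted p = 0.511).

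Of 11 genes known to regulate Il7r transcription, 6 fell, 1 rose and 4 did not pass (median log2 difference -0.24), against the background of 19.4% lower and 16.8% higher. The glucocorticoid receptor gene Nr3c1, which induces Il7r in T cells, fell from 6571 ± 317 to 4476 ± 461 (log2 difference -0.56, limma adjusted p = 2.76e-04; SD, n = 5 each). Tcf7 fell by 0.42 on the log2 scale (limma adjusted p = 9.06e-04), as did Ets1 (limma adjusted p = 2.29e-04), and Gabpa, an ETS-family activator of Il7r, by 0.41 (limma adjusted p = 0.00502). Gfi1, a repressor of Il7r, fell by 0.21 (limma adjusted p = 0.00879). Notch1 fell by 0.35 (limma adjusted p = 0.0247), with TMX11 (24187) inside the range of the controls (23102 to 27527). Spi1, the myeloid and B cell factor PU.1, averaged 381 ± 147 in TMX and 143 ± 16.3 in VEH samples and rose by 1.33 on the log2 scale (limma adjusted p = 0.00145) alongside the myeloid markers given above.

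Of 22 listed receptors of other cytokines, 20 were tested, 5 rose and 4 fell (median log2 difference 0.14), where 36.1% of all tested genes passed in either direction (16.8% higher, 19.4% lower). Csf3r (log2 difference 1.50, limma adjusted p = 6.08e-04), Csf2rb (1.15, limma adjusted p = 0.0149) and Csf2ra (0.90, limma adjusted p = 0.00162), receptors of granulocyte and macrophage growth factors, rose. A link to the neutrophil and macrophage markers was not tested. Csf2rb2 (limma adjusted p = 0.107), Il3ra (0.805) and Il5ra (0.909) were among the 11 receptors that did not pass. Il12rb2, the signalling chain for interleukin-12, fell from 1031 ± 97.4 to 603 ± 206 (log2 difference -0.84, limma adjusted p = 0.00609). Il6st, which encodes gp130, the receptor chain at which SOCS3 acts, fell by 0.48 on the log2 scale (limma adjusted p = 6.08e-04), and Il6ra rose by 0.71 (limma adjusted p = 0.00769). Of 13 listed cytokines that can induce SOCS genes, only Lif passed the filter; it averaged 83.3 ± 24.1 in TMX and 31.4 ± 12.6 in VEH samples and rose by 1.43 on the log2 scale (limma adjusted p = 0.00318), with no overlap. All 10 interferon response genes rose, with a median log2 difference of 1.97 and the largest values in Ifit1 (3.26), Ifit3 (3.24), Oas2 (3.09) and Isg15 (2.22).

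**Figure D4:**
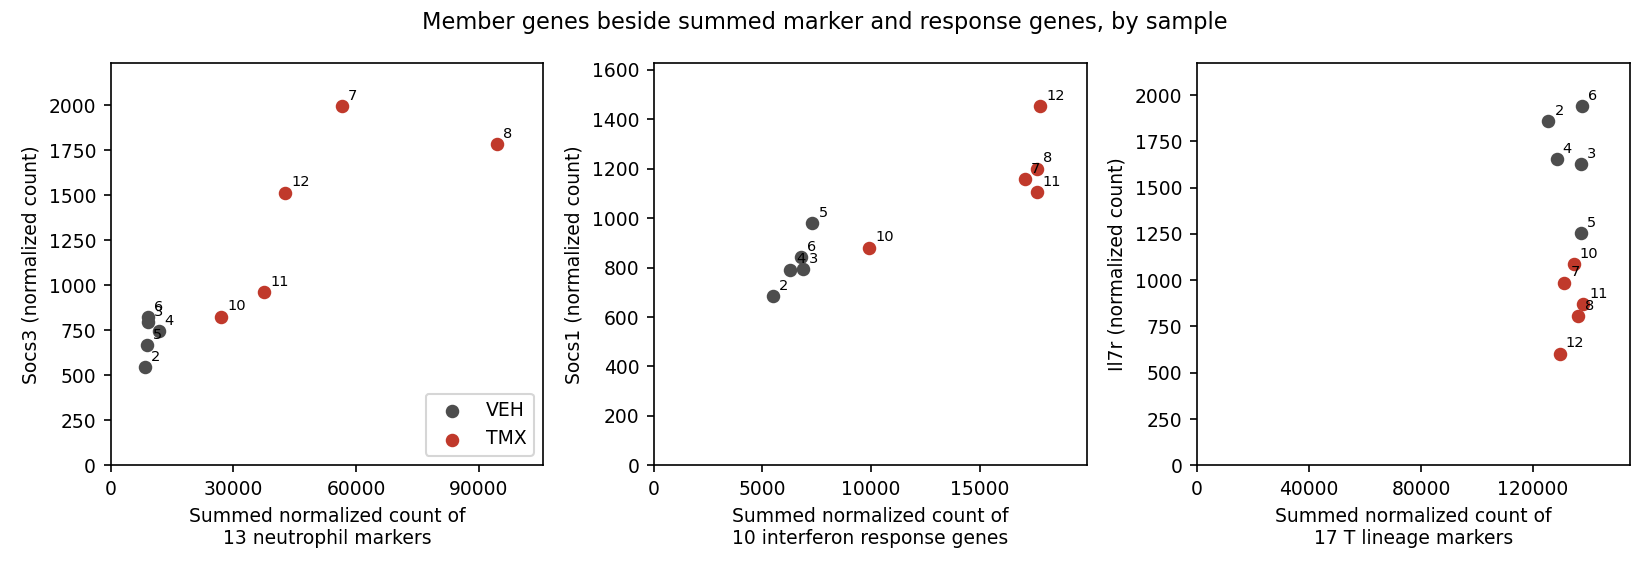
Normalized counts of Socs3, Socs1 and Il7r (vertical axes, from 0) against the summed normalized counts of neutrophil markers, interferon response genes and T lineage markers (horizontal axes, from 0); each point is 1 sample and carries its number. TMX10 has the lowest Socs3 and Socs1 and the lowest sums of its group in the first 2 panels, while in the third the T lineage sums of the groups overlap and the Il7r values do not.

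The markers of other cells in the spleen were counted in the same fit, in which 16.8% of all tested genes rose and 19.4% fell. Of 13 neutrophil markers, 12 rose, S100a9 from 2355 ± 331 to 12808 ± 6617, and Elane did not pass (limma adjusted p = 0.213). Of 12 macrophage and monocyte markers, 9 rose, and Adgre1 (limma adjusted p = 0.15), Cd163 (0.0505) and Marco (0.204) did not pass. Of 17 T lineage markers, 1 (Cd3d) rose, 4 (Cd247, Cd8b1, Cd5 and Rag1) fell and 12 did not pass. Of 8 markers of mature T cells, 1 rose and 2 fell. The counts of both T cell lists were near or below the shares of all tested genes. The limma adjusted p was above 0.05 for all 10 B cell, 5 NK and 8 erythroid markers tested, and the unadjusted limma p was under 0.05 for 2, 0 and 1 of them. By sign, 7, 5 and 2 of them were higher in TMX samples. The exact rank-sum test called only genes without overlap between the groups, so it called 0 of these and adds nothing to their overlap. Of 6 stromal and endothelial markers 1, Pdgfrb, fell, a share near the 19.4% of all tested genes. Il7r is also expressed by B cell precursors and mature T cells, and the summed mature T markers ranged from 15301 to 20311 in TMX and from 18351 to 22084 in VEH samples. Their part in the fall of Il7r was not tested.

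The genes whose profile over the 10 samples was nearest to that of Il7r were Gk5, Ikzf3 and Rbm41. Nearness was the root-mean-square difference of log2 values, each taken relative to the control mean, among 10743 tested genes with a mean of at least 100. The group difference enters this distance. Falls near that of Il7r therefore follow from the choice of these genes, and their p-values below are not a separate result. It was 0.18 for Gk5, 0.19 for Ikzf3 and 0.20 for Rbm41. Ikzf3, which encodes the lymphoid factor Aiolos, averaged 6578 ± 1342 in TMX and 12720 ± 1812 in VEH samples (SD, n = 5 each) and fell by 0.96 on the log2 scale (limma adjusted p = 4.81e-04). Gk5 fell by 0.88 on the log2 scale (limma adjusted p = 5.25e-04), and Rbm41 fell by 0.79 (limma adjusted p = 0.00555).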

How the data were processed

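RNA of 10 leukemic spleen samples was sequenced as strand-specific libraries. The authors deposited 1 table of counts divided by DESeq normalization factors, a normalized signal with 1 column per sample and 0 other columns. Kallisto 0.44.0, DESeq and the build mm10 are named per the submitters' processing notes; which annotation was used, and whether genes were filtered, is not given in the sources used here. The values are not whole reads: between 71.4% and 74.4% of low values lay within 0.1 of a multiple of the commonest low value, so no count test was run, and the depth, about 31.3 to 38.1 M reads (M, mega), is an estimate without counting intervals.

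Log2(value + 1) was fitted for the 15276 genes with a mean of at least 10 with limma 3.58.1 in R 4.3.3 (group as the only term, intensity trend), with Benjamini-Hochberg adjustment over all of them at 0.05. Log2 differences and folds are on this scale, which understates changes of low genes. Exact permutation tests are two-sided over 252 assignments. The members and lists were chosen with earlier results of these data known. Named are the members, Sirt1, from each pathway list up to 4 called genes with the largest log2 difference, and the 3 genes nearest to Il7r. Of the listed genes, 2 are not reported here. Other genes outside this rule that the text names were chosen after their values were seen. Gene positions, transcripts and 31-base words came from GENCODE M21 (GRCm38) and promoters from RefSeq GRCm38.p6, matched by symbol.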

Additional observations from a re-analysis of the deposited data

Results flagged for a closer look

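For the genes named by rule, the distance of the highest or lowest sample of a group from the next one was taken as a share of the span of that group, in 84 sets of 5 samples. The share passed the critical value of 0.71 in 8 sets, where chance at 1 in 20 gives 4.2. That number assumes normally distributed values and sets that do not depend on each other. Linear counts were used and the same samples recur over several genes, so 8 against 4.2 does not measure an excess. Among the members, VEH2 was the highest control for Jak1, at a normalized count of 9461 against 8336 to 8630. TMX12 was the lowest TMX sample for Stat5b, at 4414 against 4862 to 5009. VEH3 was the lowest control for Cish, at 83.2 against 160 to 183, inside the range of the TMX samples. Among the other genes, TMX12 was the lowest TMX sample for Ptprc, at 25344 against 29078 to 30554. VEH2 was the highest control for Sh2b3, at 2046 against 1592 to 1711, and for Ikzf3, at 15900 against 11437 to 12388. VEH5 was the highest control for Ifit3, at 48.3 against 22.2 to 27.9. TMX10 was the lowest TMX sample for Ifit1, at 378 against 881 to 1074.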

How the results depend on the processing

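No paired analysis was possible because no number in a TMX title recurs in a VEH title. Leaving out TMX10 and TMX11 together was chosen after seeing the data. The number of changed genes was 2850 at an adjusted p under 0.01 and 3659 with the exact rank-sum test, and 4207 to 6259 without 1 sample; the number of changed members was 5 with the rank-sum test and 6 or 7 in every other setting. The rank-sum test called only genes without overlap between the groups, so its missing calls for Socs1 and Cish restate their overlap. In the 21 other alternatives Il7r, Jak1, Stat5a, Stat5b, Socs1 and Socs3 kept direction and call, and Cish kept its direction and lost its call in 7, 5 of them without 1 sample. Signs turned for Il2rg under upper-quartile rescaling (0.00884) and quantile normalization (0.00824), for Socs2 under quantile normalization (-0.0479), and for Jak3 with sample weights (0.0668), without TMX10 (0.0292; -0.169 to 0.0292 over the 10 fits that each left out 1 sample) and without TMX10 and TMX11 (0.117); none of these passed, and the cause was not tested. The 31 other named genes kept their direction in these 21 as well, with 20 of 651 calls lost. The minimum mean of 50 removed Socs2.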

Other observations

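Some cytokine genes lay below the filter on low values and were not tested; they were chosen after their values were seen. Il15, whose product signals through Il2rb and the gamma chain, measured 9.66 to 27.3 normalized counts in TMX and 1.30 to 6.32 in VEH samples, without overlap. Il27, whose product signals through gp130, measured 5.37 to 18.7 in TMX and 1.06 to 5.78 in VEH samples, overlapping at the edge. Il21, a gamma-chain cytokine, measured 5.38 to 22.6 in TMX and 1.88 to 5.50 in VEH samples, likewise overlapping. Counting error is large at such low values.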
